A study of Mus musculus with 3 samples.

Results

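LepR+ stromal cells of mouse bone marrow with little immediate early RNA were taken from 3 single-cell libraries, and 1574 such cells were found among 8336 cells kept. A cell was a member if it held at least 30 Cxcl12 UMIs per 10000, at least 1 Lepr UMI, under 5 UMIs per 10000 of Alpl and Wif1, under 10 of Mmp13, at most 5 hemoglobin UMIs, no Ptprc UMI and under 20 UMIs per 10000 of the immediate early genes Fos, Fosb, Jun, Junb and Egr1 together. A UMI (unique molecular identifier) marks 1 captured RNA molecule. The libraries were 1 of wild-type mice (WT), 1 of R76W mice and 1 of D130 mice, with 567, 509 and 498 members. Both mutants are transgenic models of connexin 43 (Cx43, gene Gja1): R76W changes arginine 76 and is described as inhibiting the gap junctions of osteocytes, while D130, read as the model that lacks residues 130 to 136, is described as blocking their hemichannels too. All mice were C57BL/6 and 6 to 8 weeks old, and nothing in the labels names the promoter of a transgene or how many mice gave each library. Cells from flushed and collagenase-treated bone were sorted as marrow mesenchymal stromal cells by PDGFRα, CD51, Ter119, CD45 and CD31 antibodies. With 1 library per genotype there was no replicate, so no test between genotypes could be made and each difference is one between libraries.

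LepR+ stromal cells, also called CXCL12-abundant reticular cells, line the marrow vessels and feed blood formation. They release the chemokine Cxcl12 and the stem cell factor Kitl, carry the leptin receptor, and can become marrow adipocytes or osteoblasts. Immediate early genes such as Fos and Egr1 are switched on within minutes by growth factors, by stress and by the freeing of cells from tissue, and cells with little of their RNA are the less stimulated end of that range. Connexin 43 forms channels between neighbouring cells and, as hemichannels, between a cell and its surroundings, through which osteocytes release prostaglandin E2.

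The label fitted the markers. Levels are UMIs of a gene summed over the members of a library, in counts per 1000000 of the members' UMIs (CPM), with a 95% Poisson interval that covers counting error only. Besides Cxcl12 and Lepr, which the rule used, the members held Adipoq (adiponectin) at 1585 CPM in WT, 980.1 CPM in R76W and 1134 CPM in D130, Kitl at 2601 CPM in WT, 2714 CPM in R76W and 3151 CPM in D130 and Ebf3, a transcription factor that keeps these cells from turning into bone, at 2182 CPM in WT, 2769.6 CPM in R76W and 2778 CPM in D130. In the other cells kept from the same libraries Adipoq stood at 138, 265 and 153 CPM and Ebf3 at 188, 607 and 332 CPM. The sort antigens CD51 (Itgav, 251, 272 and 254 CPM in WT, R76W and D130) and PDGFRα (Pdgfra, 499.6, 605 and 487 CPM) were present in members of each library, and CD31 (Pecam1) had 3, 9 and 5 UMIs.

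WT members held 3074719 UMIs, R76W members 4009649 and D130 members 4197440, with medians of 5299, 7363 and 8127.5 UMIs per cell, so WT members were the shallowest. The hemoglobin limit is a fixed number of UMIs and by itself removed 143 WT, 53 R76W and 43 D130 cells, and the Mmp13 limit removed 249, 243 and 82. Y-linked RNA was found in each library and Xist had 3, 2 and 1 UMIs, so all held male cells. No barcode was shared between members of different libraries, and Scrublet called 1 WT, 0 R76W and 1 D130 member a doublet. Markers of blood and endothelial cells were low in the members. The 16 erythroid markers found in the files, hemoglobins aside, summed to 129 CPM in WT, 51.6 in R76W and 86.0 in D130. The 13 neutrophil markers summed to 128, 64.6 and 92.2 CPM, with Mpo and Cebpe at 0 in WT and R76W and Ly6g at 0 in R76W and D130. The 13 monocyte markers summed to 56.9, 42.9 and 42.6 CPM, with C1qb and Ccr2 at 0 in WT and R76W, and the 12 endothelial markers to 12.7, 13.2 and 10.2 CPM, with Cdh5 at 0 in WT and D130 and Tie1 at 0 in all 3 libraries. Markers of other stromal kinds were higher: the 12 osteoblast markers, mostly Ibsp, summed to 8482, 8563 and 5815 CPM, the 13 fibroblast markers to 1528, 1857 and 1753 CPM, and the 11 mural markers to 360.4, 319 and 367 CPM.

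Members were the majority of LepR+ cells in each library, and they were the smallest share in D130. Of the cells that met every other limit, those under 20 immediate early UMIs per 10000 were 72.9% of 778 in WT (exact Clopper-Pearson interval 69.6 to 76), 77% of 661 in R76W (73.6 to 80.2) and 64.8% of 769 in D130 (61.3 to 68.1). The D130 interval lay below those of WT and R76W, which overlapped. With each cell thinned to 2000 UMIs, which left out 44, 20 and 13 cells, the shares were 70.8%, 76% and 61.9%. The limit cuts a range and not a gap. The 5 to either side of it held 22 WT cells just below (15 to 20 per 10000) and 17 just above (20 to 25), 9 and 9 cells in R76W, and 36 and 27 in D130.

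Within the members, too, immediate early RNA was not the same in the 3 libraries. No UMI of the 5 genes was found in 57.8% of WT members, 64.8% of R76W members and 40.4% of D130 members. Such a share depends on depth, and the members had medians of 5299, 7363 and 8127.5 UMIs per cell. The 90th percentile of their sum was 8.56 per 10000 in WT, 4.07 in R76W and 13.5 in D130. The 5 genes chose the members, so these values are a description. Every one of them was highest in D130 members and lowest in R76W members: Fos, which pairs with Jun in the AP-1 factor, stood at 35.5 CPM in WT, 20.5 CPM in R76W and 49.3 CPM in D130, and Egr1, a zinc-finger factor, at 42 CPM in WT, 15.5 CPM in R76W and 93.4 CPM in D130.

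**Figure D1:**
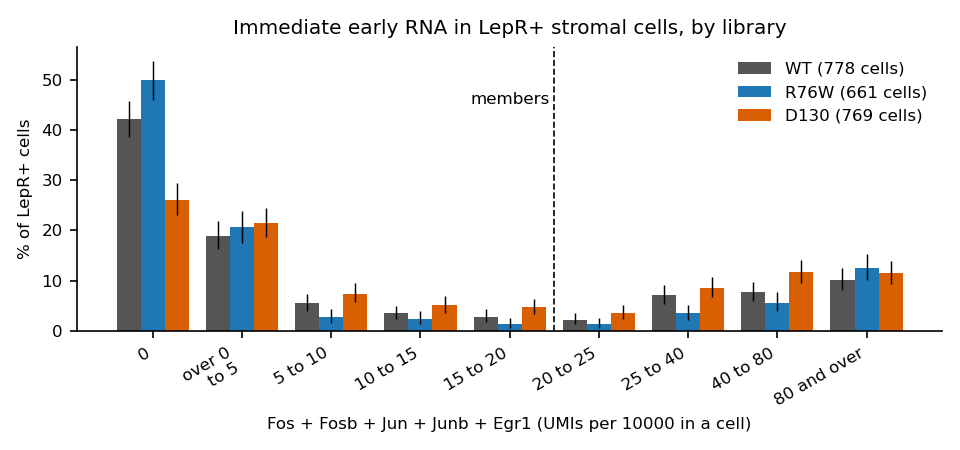
Share of LepR+ cells (y axis, %) by the summed UMIs of Fos, Fosb, Jun, Junb and Egr1 per 10000 in a cell (x axis) for WT (grey, 778 cells), R76W (blue, 661) and D130 (orange, 769), with exact binomial 95% intervals as bars. Members lie left of the dashed line at 20, where cells without a UMI of these genes are most of the members in WT and R76W and 40.4% of them in D130.

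Few measured genes were past 1.5 times across the limit in every library, and more were in a single library. Of the measured genes, 135 of 11875 (1.14%) were at least 1.5 times higher in the cells above the limit in all 3 libraries, and 152 (1.28%) were at least 1.5 times lower. Taken singly, WT had 7.01% higher and 14.7% lower, R76W 9.11% and 16.3%, and D130 4.26% and 8.03%. A gene was measured if it had at least 30 UMIs over the members of the 3 libraries. These counts therefore leave out genes found almost only above the limit, while the ranking that follows did not use that minimum. Besides the genes of the limit, the 10 genes lowest in members by the smallest of the 3 libraries' differences included Klf4, Dusp1, Ier2 and Zfp36, which are early-response genes themselves, as well as Gm26802 and Polg2. Ier2 was at 17.6, 9.48 and 35 CPM in members of WT, R76W and D130 and at 359, 379 and 479.5 CPM in the cells above the limit.

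The genes highest in members against the cells above the limit included the long noncoding RNAs Dnm3os and Mir100hg, the adhesion genes Flrt2 and Clstn2, and Trabd2b and Lrig3. Dnm3os, the host of the microRNAs miR-199a and miR-214, stood at 70.9, 78.1 and 78.4 CPM in members and 21, 22.6 and 34.7 CPM above the limit. Mir100hg stood at 479.7, 529 and 448 CPM and 302, 303 and 282 CPM. The niche genes moved less: Kitl stood at 2579, 2427 and 2797 CPM above the limit, Ebf3 at 1711, 2231 and 2316 CPM and Adipoq at 1755, 1267 and 1293 CPM. Ebf3 was thus lower and Adipoq higher above the limit in each library. In WT the cells above the limit also held the osteoblast genes Bglap at 1069 CPM and Col1a1 at 1989 CPM, against 61.8 and 206 CPM in WT members.

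The genes that led the members over all other kept cells were Grid1, Ptchd1, Gm15155, Sned1, Foxp2, Nrg3, Acss3, Deptor, Fam13a and Slc26a7, ranked by the smallest of the 3 libraries' ratios. Grid1, a glutamate receptor family gene, was at 116 CPM in WT, 174 CPM in R76W and 213 CPM in D130, against 7.79, 22.8 and 14.8 CPM in the other kept cells and 108, 113 and 144 CPM in the LepR+ cells above the limit alone. Deptor, an inhibitor of the growth kinase mTOR, was at 394 CPM in WT, 522 CPM in R76W and 403 CPM in D130, against 27.3, 102 and 44.8 CPM and 317, 372 and 377 CPM. For both genes the level above the limit was nearer to that of members than to that of the other kept cells in each library. The other kept cells are of many kinds, erythroid cells foremost in WT, so these ratios are a description.

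R76W against WT asks how these stromal cells differ where osteocyte gap junctions are inhibited while hemichannels are kept. R76W members had more Gja1, more of the retinoic acid-forming enzyme gene Aldh1a2, more Il1rn and more Zbtb16. They had less Spp1, Bmp4 and Hpgd, and 12 of 34 interferon-response genes were at least 1.5 times lower and none was higher. Of all 11875 measured genes, 4.95% stood 1.5 times or more higher in R76W and 7.38% lower, with a median log2 ratio of -0.01. The ratios followed gene length: the median was -0.28 over the 1188 shortest genes, which spanned 2.91 kb in the median, and 0.14 over the 1188 longest, at 218 kb. The cause of that trend was not tested, and the medians of some lists are also given with it removed.

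D130 against WT asks the same for the model in which both kinds of osteocyte channel are blocked. D130 members had more RNA of the chemokines Ccl2 and Ccl7, of 7 of 14 heat shock genes, of 8 of 21 cholesterol synthesis genes, of Pparg and of Zbtb16. They had less Aldh1a2, Ptn and A2m and less of the bone matrix gene Ibsp. Of all measured genes 5.94% were at least 1.5 times higher and 6.07% lower, with a median of 0.00, and the medians by gene length ran from -0.10 to 0.04. The shares of all measured genes in these comparisons are the scale for each list count that follows. Both comparisons use the same WT cells, so a WT level that is high or low by chance enters both, and the 3 levels of each gene are given side by side.

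Most stromal identity genes lay within 1.5 times of WT in both mutants, as did most measured genes. Of 26 identity genes, 24 in R76W and 23 in D130 did so. Over all 11875 measured genes, 4.95% were higher and 7.38% lower in R76W, and 5.94% and 6.07% in D130. Past 1.5 times were Grem1 (higher) and Adipoq (lower) in R76W, and Nr2f2, Zeb2 and Cebpb (all higher) in D130. Lepr itself was at 2392 CPM (2338 to 2447) in WT, 2704 CPM (2653 to 2755) in R76W and 1657 CPM (1618 to 1697) in D130, so D130 members had 0.693 (0.670 to 0.716) times the WT level. Runx2, the osteoblast-lineage regulator that LepR+ cells already transcribe, was at 2062 CPM (2012 to 2114) in WT, 2557 CPM (2508 to 2607) in R76W and 1721 CPM (1681 to 1761) in D130. For both genes R76W was the highest library and D130 the lowest. Zeb2, a repressor active in mesenchymal cells, ran from WT up to D130, at 1685 CPM in WT, 2181 CPM in R76W and 2791 CPM in D130, and Vcam1, the adhesion molecule that holds blood cells in the marrow, was at 1526 CPM in WT, 1358 CPM in R76W and 1901 CPM in D130. The transcription factors Ebf1 (3112, 3462 and 3051 CPM), Foxc1 (505, 654 and 519 CPM) and Prrx1 (406, 481 and 473 CPM) kept within 1.5 times.

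**Figure D2:**
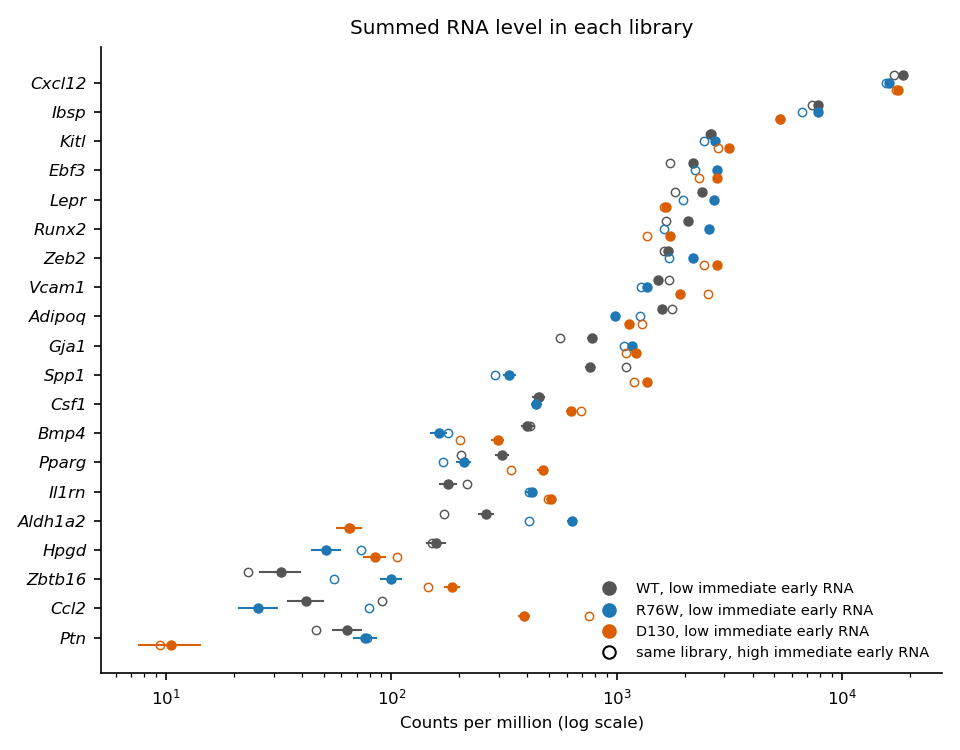
RNA level in CPM (x axis, log scale) of 20 genes (y axis) in members of WT (grey), R76W (blue) and D130 (orange). Filled points with bars are members with their Poisson 95% intervals, and open points are the LepR+ cells of the same library above the immediate early limit; for Zbtb16, Ccl2, Aldh1a2 and Il1rn the order of the 3 libraries is the same in both kinds of cell.

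Gja1, the gene that both models alter, was higher in the members of both mutants. Its level was 771 CPM (741 to 803) in WT, 1169.9 CPM (1137 to 1204) in R76W and 1216 CPM (1182 to 1249) in D130, which is 1.52 (1.44 to 1.59) times WT in R76W and 1.58 (1.5 to 1.65) times in D130. The R76W and D130 intervals overlapped and both lay above that of WT. Above the immediate early limit Gja1 stood at 561, 1072 and 1100.0 CPM. Whether any of these UMIs came from a transgene was not tested. The vascular connexin gene Gja5 was sparse at 3.58, 6.73 and 10.2 CPM, and Gjc1 (connexin 45) at 72.5, 78.3 and 93.9 CPM and Panx1 (pannexin 1) at 20.2, 20.2 and 23.8 CPM lay within 1.5 times of each other. Only 4 of 15 connexin and pannexin genes were measured, 10, 10 and 9 of the 15 having no UMI in WT, R76W and D130.

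Prostaglandin E2 acts on stromal cells through 4 receptors and is cleared by the transporter Slco2a1 and the enzyme of Hpgd. Hpgd stood at 157 CPM (144 to 172) in WT, 51.4 CPM (44.6 to 58.9) in R76W and 84.3 CPM (75.8 to 93.6) in D130, so R76W members had 0.326 (0.276 to 0.385) times the WT level and D130 members 0.536 (0.466 to 0.616) times. All 3 intervals were apart, with WT highest and R76W lowest. Ptger4, the receptor gene of the EP4 type that raises cAMP, was at 20.5 CPM (15.7 to 26.2) in WT, 27.7 CPM (22.8 to 33.3) in R76W and 41.5 CPM (35.5 to 48.1) in D130, and only the D130 interval lay apart from WT. Ptger3, whose receptor lowers cAMP, was at 17.2 CPM (12.9 to 22.5) in WT, 4.99 CPM (3.05 to 7.70) in R76W and 22.4 CPM (18.1 to 27.4) in D130, lowest in R76W with WT and D130 overlapping. Ptger2 and Ptgs1 were sparse at 1.30, 4.49 and 4.05 CPM and 1.30, 0.998 and 6.19 CPM. Ptgs2, the inducible cyclooxygenase gene, had no UMI in any member, which allows up to 0.976, 0.748 and 0.715 CPM by 3 counts per library. Of the 12 genes measured, 2 were 1.5 times or more higher in R76W and 2 lower, with a median log2 ratio of -0.02, and 3 were higher and 1 lower in D130, with a median of 0.25. The shares over all measured genes were 4.95% and 7.38% in R76W, and 5.94% and 6.07% in D130.

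Of 13 measured cAMP and CREB target genes, 1 was at least 1.5 times higher in R76W and none lower (median 0.25), and 3 were higher and 2 lower in D130 (median 0.13). The R76W median was 0.10 with the length trend removed and 0.16 in members with no immediate early UMI. All measured genes had 4.95% higher and 7.38% lower in R76W, and 5.94% and 6.07% in D130. The AP-1 gene Fosl2 was the one higher in both, at 8.78 CPM in WT, 17.7 CPM in R76W and 32.4 CPM in D130. Nr4a1, a nuclear receptor that is also an early-response gene, was at 2.28 CPM in WT, 1.75 CPM in R76W and 5.72 CPM in D130, and at 36.1, 137 and 20.4 CPM above the limit, where its R76W level was highest. For Nr4a1 the order of the libraries thus differed on the 2 sides of the limit.

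Among factors that feed blood cells, Cxcl12, a gene of the rule, was at 18579 CPM in WT, 16081 CPM in R76W and 17663 CPM in D130 and Angpt1, the ligand of the Tie2 receptor, at 727 CPM in WT, 681 CPM in R76W and 761 CPM in D130, both within 1.5 times. The lymphoid cytokine gene Il7 was at 147 CPM in WT, 129 CPM in R76W and 124 CPM in D130 and the macrophage growth factor gene Csf1 at 449 CPM in WT, 438 CPM in R76W and 624 CPM in D130. Spp1 (osteopontin), a matrix protein that restrains blood stem cells, was at 763 CPM (732 to 794) in WT, 334 CPM (316 to 352) in R76W and 1361 CPM (1326 to 1397) in D130, more than 4 times as high in D130 as in R76W with WT between. Bmp4 was at 399 CPM (377 to 422) in WT, 162 CPM (149.9 to 175) in R76W and 296 CPM (279 to 313) in D130, where WT was highest and R76W lowest. The neurite-promoting factor gene Ptn stood at 63.7 CPM (55.1 to 73.3) in WT, 76.6 CPM (68.2 to 85.6) in R76W and 10.5 CPM (7.62 to 14.1) in D130, and D130 had 0.164 (0.116 to 0.229) times the WT level. Of 24 measured niche genes, none was higher and 4 were lower in R76W (Spp1, Bmp4, Ccl19 and Cxcl14, median -0.18), and 2 were higher (Spp1 and Tgfb1) and 1 lower (Ptn) in D130, with a median of 0.04. All measured genes had 4.95% higher and 7.38% lower in R76W, and 5.94% and 6.07% in D130.

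Adipogenic genes did not move as a group. Pparg, the master regulator of fat cells, was at 309.9 CPM (291 to 330.3) in WT, 209 CPM (195 to 223) in R76W and 469 CPM (448 to 489.8) in D130, lowest in R76W and highest in D130 with no overlap. Adipoq was highest in WT instead, with R76W at 0.618 (0.593 to 0.645) and D130 at 0.716 (0.687 to 0.745) times the WT level. The lipase gene Lpl was at 2719 CPM in WT, 2544 CPM in R76W and 3336 CPM in D130 and the lipoprotein gene Apoe at 3387 CPM in WT, 2219 CPM in R76W and 2870.3 CPM in D130. The list had 2 of 25 genes higher and 5 lower in R76W (median -0.27, and -0.09 with the length trend removed) and 4 higher and 2 lower in D130 (median -0.14, which was 0.14 when cells up to 40 immediate early UMIs per 10000 were taken). Some of these counts came from single cells: 1 D130 member held 99.3% of the D130 UMIs of Cfd (adipsin) and 1 R76W member 96.3% of those of Fabp4.

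The osteogenic list had medians of 0.01 in R76W and -0.03 in D130, with 3 of 27 genes higher and 3 lower in each mutant. Over all measured genes, 4.95% were higher and 7.38% lower in R76W, and 5.94% and 6.07% in D130. Ibsp, a mineral-binding matrix protein that is among the most abundant RNAs of these cells, was at 7772 CPM (7674 to 7872) in WT, 7809 CPM (7722 to 7896) in R76W and 5268 CPM (5199 to 5338) in D130, equal in WT and R76W within their intervals and lower in D130. Phex, an endopeptidase gene of phosphate handling, was at 172 CPM in WT, 206 CPM in R76W and 97.4 CPM in D130, and Sp7 (osterix), which commits cells to bone, at 23.1 CPM in WT, 19.7 CPM in R76W and 23.1 CPM in D130 with overlapping intervals. The receptor gene for vitamin D, Vdr, stood at 27.6 CPM in WT, 46.4 CPM in R76W and 39.8 CPM in D130. Col1a1 was at 206 CPM in WT, 259.6 CPM in R76W and 427 CPM in D130, but 1 of 341 D130 members with a UMI held 45.8% of the D130 UMIs. The RANKL gene Tnfsf11, which drives osteoclasts, was at 139 CPM in WT, 192 CPM in R76W and 116 CPM in D130. Among 9 measured osteoclast regulators 1 was higher and 2 lower in R76W, and 3 were higher and none lower in D130.

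Of 34 interferon-response genes, 12 were lower in R76W and 22 lay within 1.5 times of WT. Isg15, which tags proteins in antiviral defence, stood at 91.1 CPM (80.7 to 102) in WT, 47.4 CPM (40.9 to 54.6) in R76W and 155 CPM (144 to 168) in D130, with no overlap between libraries. Ifit1, whose protein binds foreign RNA, stood at 41 CPM (34.1 to 48.8) in WT, 18.2 CPM (14.3 to 22.9) in R76W and 58.6 CPM (51.5 to 66.4) in D130. Ifit3 was at 31.2 CPM in WT, 7.23 CPM in R76W and 27.6 CPM in D130, yet 1 WT member held 53.1% of its WT UMIs. The class I antigen gene H2-D1 was at 3179 CPM in WT, 1957 CPM in R76W and 2426 CPM in D130, lowest in R76W. B2m, its partner chain, was at 1624 CPM in WT, 1522 CPM in R76W and 1657 CPM in D130, within 1.5 times in each comparison.

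Over the list, 12 of 34 measured genes were at least 1.5 times lower in R76W and none was higher (median -0.29), and 5 were higher and none lower in D130 (median 0.25). Cxcl9 and Cxcl10, ligands that draw T cells, were carried by few cells. Cxcl10 was at 79 CPM in WT, 13.2 CPM in R76W and 203 CPM in D130, found in 10, 8 and 16 members, and 1 member held 63% of its WT, 81.1% of its R76W and 37% of its D130 UMIs. Without the 19 WT, 9 R76W and 29 D130 members that held at least 10 UMIs of both together per 10000, a choice made after seeing the data, the medians were -0.18 and 0.18. With the length trend removed the R76W median was -0.16, and in members with no immediate early UMI it was -0.13. Neutrophil and monocyte markers were also lower in R76W members than in WT members (64.6 and 128 CPM, 42.9 and 56.9 CPM), and their part in the result was not tested.

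Promoter sequence is something the rule did not use. The interferon-stimulated response element was searched as GAAANNGAAA on both strands in the 250 bases before the start of each gene, from the RefSeq promoter table of GRCm38.p6. It was found in 13 of 29 listed genes with a promoter (44.8%), in 7 of the 12 genes that were lower in R76W, and in 3.46% of 27025 genes in all. The list was made of genes known to respond to interferon. Its share above that of all genes therefore describes the list and bears on no difference between libraries. The 3 promoters are shown because Isg15 and Cxcl10 were lower in R76W and higher in D130, while Ifit1 was past 1.5 times in R76W alone: Isg15 (chr4:156200819-156201068, minus strand), Ifit1 (chr19:34640639-34640888, plus strand) and Cxcl10 (chr5:92348890-92349139, minus strand). Capitals mark the matches, which overlap in Isg15, and each is written 5′ to 3′ along the gene's strand.
Isg15: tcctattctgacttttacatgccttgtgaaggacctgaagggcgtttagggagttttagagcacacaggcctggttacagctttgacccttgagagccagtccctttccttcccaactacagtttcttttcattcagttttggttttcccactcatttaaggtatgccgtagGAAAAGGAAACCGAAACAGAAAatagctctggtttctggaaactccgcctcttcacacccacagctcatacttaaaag
Ifit1: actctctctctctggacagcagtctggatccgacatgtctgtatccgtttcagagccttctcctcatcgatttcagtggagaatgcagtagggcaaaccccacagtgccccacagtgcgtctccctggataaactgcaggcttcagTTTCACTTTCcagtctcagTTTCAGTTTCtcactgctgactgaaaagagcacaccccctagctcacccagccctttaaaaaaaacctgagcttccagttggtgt
Cxcl10: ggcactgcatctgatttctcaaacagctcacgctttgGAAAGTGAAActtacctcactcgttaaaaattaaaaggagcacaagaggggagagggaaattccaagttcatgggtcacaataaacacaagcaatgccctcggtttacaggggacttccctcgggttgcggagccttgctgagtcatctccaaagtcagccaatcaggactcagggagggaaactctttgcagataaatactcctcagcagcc
Isg15 had 3 matches beginning 78 bases before the start, Ifit1 had 2 beginning 104 bases before it, and Cxcl10 had 1 at 213 bases. A match is a run of letters and was not measured as a binding site. The log2 ratio of Ifit1 between D130 and WT was 0.51.

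Of 25 measured chemokines and other NF-kB outputs, 10 stood 1.5 times or more higher in D130 and 9 lower in R76W. The shares of all measured genes were 5.94% and 7.38%. Lists share genes: Cxcl9 and Cxcl10 are in these counts and in those of the interferon list. Lcn2, lower in R76W, is also in the plasma-type, glucocorticoid and neutrophil lists. Ccl2, which calls monocytes out of the marrow, stood at 41.6 CPM (34.7 to 49.5) in WT, 25.7 CPM (21 to 31.2) in R76W and 388 CPM (369 to 407) in D130, so D130 members had 9.31 (7.77 to 11.2) times the WT level. Its neighbour Ccl7 stood at 15.9 CPM (11.8 to 21.1) in WT, 9.73 CPM (6.92 to 13.3) in R76W and 51.5 CPM (44.8 to 58.8) in D130. D130 lay above both other libraries for both genes, and WT and R76W overlapped for Ccl7. Ccl2 was not spread evenly, since it had UMIs in 44 WT, 49 R76W and 156 D130 members. After thinning to 2000 UMIs, 3.97% of WT, 3.06% of R76W and 19.4% of D130 members held a Ccl2 UMI (7.76%, 9.63% and 31.3% unthinned), against 0.278%, 0% and 0.512% of erythroid cells thinned alike, which should lack it.

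Il1rn, the decoy that blocks the interleukin 1 receptor, stood at 179 CPM (164 to 194) in WT, 418 CPM (399 to 439) in R76W and 510.3 CPM (489 to 532) in D130, higher in both mutants than in WT. Ptx3, a soluble pattern receptor, was at 114 CPM in WT, 71.1 CPM in R76W and 177 CPM in D130, and the acute-phase gene Saa3 was sparse at 2.93, 4.24 and 10.5 CPM. Nfkbia, the feedback inhibitor of NF-kB, was at 114 CPM in WT, 97 CPM in R76W and 149 CPM in D130, and Icam1 at 32.5 CPM in WT, 30.9 CPM in R76W and 30.02 CPM in D130 with overlapping intervals. No gene of the list was lower in D130 (median 0.48), and 1, Il1rn, was higher in R76W (median -0.16, and -0.04 with the length trend removed). In members with no immediate early UMI the medians were 0.23 in D130 and 0.00 in R76W, and with at most 1 hemoglobin UMI 0.60 and -0.04. The monocyte markers summed to 56.9 CPM in WT, 42.9 CPM in R76W and 42.6 CPM in D130; of the 3 measured, Lyz2 was higher in D130 at 2.93, 2.74 and 7.15 CPM, Csf1r was lower at 5.53, 0.998 and 2.14 CPM and Fcer1g was lower at 43.6, 35.4 and 26.7 CPM. Their part in the result was not tested.

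Of 14 measured heat shock genes, 7 were at least 1.5 times higher and none lower in D130 members (median 0.59). Hspa8, the constitutive HSP70, was at 528 CPM in WT, 643 CPM in R76W and 847 CPM in D130, its co-chaperone Dnaja1 at 179 CPM in WT, 223 CPM in R76W and 358 CPM in D130 and Hsp90ab1 at 420.2 CPM in WT, 399.5 CPM in R76W and 656 CPM in D130. D130 was highest for each of the 3 genes. The other genes of the 7 were Hsph1, Hsp90aa1, Dnajb1 and Hspa4l. The stress-inducible Hspa1a was sparse, with 0, 8 and 9 UMIs in WT, R76W and D130. Erythroid cells of the same libraries, those with over 50 hemoglobin UMIs, held Hspa8 at 1151, 1841 and 1576 CPM, and the erythroid markers summed to 129 CPM in WT and 86.0 CPM in D130 members. With at most 1 hemoglobin UMI per member the D130 median of the heat shock list was 0.42, and the part of erythroid RNA in it was not tested. R76W had 2 heat shock genes higher and none lower, with a median of 0.18.

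The unfolded protein response, which enlarges folding capacity in the endoplasmic reticulum, had 6 of 23 genes higher and none lower in D130 (median 0.29), and none past 1.5 times in R76W (median -0.07). Hspa5 (BiP) stood at 871 CPM (838 to 905) in WT, 959.9 CPM (929.8 to 991) in R76W and 1411 CPM (1375 to 1447) in D130 and calreticulin, Calr, at 403 CPM (381 to 426) in WT, 437 CPM (416 to 458) in R76W and 734 CPM (708 to 760.4) in D130. Xbp1, whose spliced form drives the response, was at 138 CPM in WT, 129.9 CPM in R76W and 232 CPM in D130, and Herpud1, a degradation factor, at 77.4 CPM in WT, 92.3 CPM in R76W and 139.6 CPM in D130. WT and R76W lay close for Calr and Xbp1, and D130 stood apart. In members with no immediate early UMI the D130 median was again 0.29, and that of heat shock genes was 0.33.

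Cholesterol synthesis genes were low in all members, and more of them were lower than higher in R76W and more higher than lower in D130. Of 21 measured, 9 were at least 1.5 times lower and none higher in R76W (median -0.42), and 8 were higher and 2 lower in D130 (median 0.44). Idi1, Msmo1 and Stard4 passed 1.5 times in opposite directions in the mutants, while Lss and Tm7sf2 were lower in both. Cyp51, which removes a methyl group from lanosterol, was at 6.18, 5.49 and 18.8 CPM in WT, R76W and D130, and Fdps, which makes farnesyl diphosphate, at 9.76, 1.75 and 13.8 CPM. These are levels of 7 to 79 UMIs, and erythroid cells held Fdps at 79.4, 63.9 and 65.4 CPM. Without an immediate early UMI the medians were -0.34 and 0.33. The part of erythroid RNA, whose markers summed to 129 CPM in WT, 51.6 in R76W and 86.0 in D130, was not tested.

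Of 24 genes known to respond to glucocorticoids or metals, 3 were higher and 1 lower in R76W (median 0.00) and 7 higher and 1 lower in D130 (median 0.19). Among all measured genes, 4.95% were higher and 7.38% lower in R76W, and 5.94% and 6.07% in D130. Zbtb16 (PLZF), a transcription factor gene, stood at 32.2 CPM (26.2 to 39.2) in WT, 99.8 CPM (90.2 to 110.03) in R76W and 185 CPM (172 to 198) in D130, with WT lowest, R76W between and D130 highest. It was at 23.1, 55.8 and 145 CPM above the immediate early limit. After thinning, 6.43% of WT, 17.3% of R76W and 27.2% of D130 members held a Zbtb16 UMI (13.9%, 42.6% and 60.2% unthinned). The metallothionein gene Mt1 was at 109 CPM in WT, 88 CPM in R76W and 232 CPM in D130 and the receptor co-chaperone gene Fkbp5 at 112 CPM in WT, 137 CPM in R76W and 173 CPM in D130, while Tsc22d3 (GILZ), at 92.7 CPM in WT, 113 CPM in R76W and 132 CPM in D130, and Per1, at 12.4, 12 and 13.6 CPM, stayed within 1.5 times.

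Most genes of the matrix and secreted protein lists lay within 1.5 times of WT, as did most measured genes. Over all measured genes, 4.95% were higher and 7.38% lower in R76W, and 5.94% and 6.07% in D130. Col8a1, a short-chain collagen, was at 488 CPM (464 to 514) in WT, 960.4 CPM (930.3 to 991) in R76W and 626 CPM (602 to 651) in D130, highest in R76W. Of 22 measured collagen genes 4 were higher and 1 lower in each mutant, with medians of 0.29 in R76W and 0.06 in D130. None of 28 small proteoglycans and glycoproteins was past 1.5 times in R76W, and 2 were higher and 1 lower in D130. Igfbp5, the insulin-like growth factor binder, was at 11459 CPM in WT, 9714 CPM in R76W and 6957 CPM in D130, lowest in D130. Among 33 proteases and inhibitors, R76W had 4 higher and 5 lower and D130 1 higher and 2 lower. A2m, a broad protease trap, was at 47.2 CPM in WT, 52.6 CPM in R76W and 9.77 CPM in D130. Of 25 plasma-type proteins, such as Apoe, Hp and complement factors, none was higher and 5 were lower in R76W (median -0.36, and -0.20 with the length trend removed). In D130 1 was higher and 3 were lower (median -0.21). The 1 higher gene was Cfd, whose D130 UMIs came almost all from 1 member, as given above.

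The signalling lists held genes that differed in both directions, and most of their genes lay within 1.5 times of WT. Over all measured genes, 4.95% were higher and 7.38% lower in R76W, and 5.94% and 6.07% in D130. Of 27 Wnt genes, 3 were higher and 3 lower in R76W and 2 higher and 5 lower in D130, with Wnt4 at 134 CPM in WT, 187 CPM in R76W and 99.6 CPM in D130. Of 35 BMP and TGF-beta genes, 3 were higher and 6 lower in R76W and 3 higher and 4 lower in D130. Id3, a BMP target, was at 532 CPM in WT, 323 CPM in R76W and 503 CPM in D130, and Id1 at 10.4 CPM in WT, 4.24 CPM in R76W and 29.3 CPM in D130. Of 12 Notch genes, 1 was higher in R76W, the target Heyl at 66.7 CPM in WT, 171 CPM in R76W and 93.9 CPM in D130, and in D130 3 were higher and 1 lower, with Notch1 at 35.8 CPM in WT, 32.9 CPM in R76W and 63.8 CPM in D130 and its target Hes1 at 269.6 CPM in WT, 189 CPM in R76W and 149 CPM in D130. Of 13 IGF genes none was higher and 1 lower in R76W, and 1 was higher and 2 were lower in D130.

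Among retinoid and axon-guidance genes, Aldh1a2 differed from WT in opposite directions in the mutants. Aldh1a2, which makes retinoic acid, stood at 262 CPM (244 to 281) in WT, 631 CPM (606 to 656) in R76W and 65 CPM (57.6 to 73.2) in D130, so R76W had 2.41 (2.22 to 2.61) and D130 0.248 (0.215 to 0.285) times the WT level. After thinning, 29.1% of WT, 54.3% of R76W and 10.8% of D130 members held a UMI of it (50.1%, 74.1% and 26.7% unthinned). Rarb, a retinoic acid receptor gene and target, was highest in WT at 28.3 CPM in WT, 17.5 CPM in R76W and 11.4 CPM in D130. Over the list of 22 measured genes, 3 were higher and 3 lower in R76W and 3 higher and 4 lower in D130. The Schwann cell markers S100b and Ncam1, which these cells transcribe, were lower in D130 at 121, 95.5 and 52.4 CPM and 194, 191 and 89.6 CPM, with Sox10 and Gfra3 at 0 in all 3 libraries.

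Of 25 other immediate early genes, which the rule touched only through the 5 it used, 3 were higher and 4 lower in R76W (median -0.25) and 8 higher and 3 lower in D130 (median 0.23). With the length trend removed these medians were -0.09 and 0.34. Cell cycle genes summed to only 270 CPM in WT, 156 in R76W and 229 in D130, with 11 of 15 lower in R76W (median -0.94) and 3 lower in D130 (median -0.22). Mki67 was at 10.7, 1.25 and 4.05 CPM in members, against 581, 842 and 704 CPM in erythroid cells. With at most 1 hemoglobin UMI per cell the medians were -0.80 and 0.01, and in members with no immediate early UMI they were -0.25 and 0.13. Of 13 mitochondrially encoded genes, 3 were lower and none higher in R76W, and 4 were higher and 1 lower in D130.

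**Figure D3:**
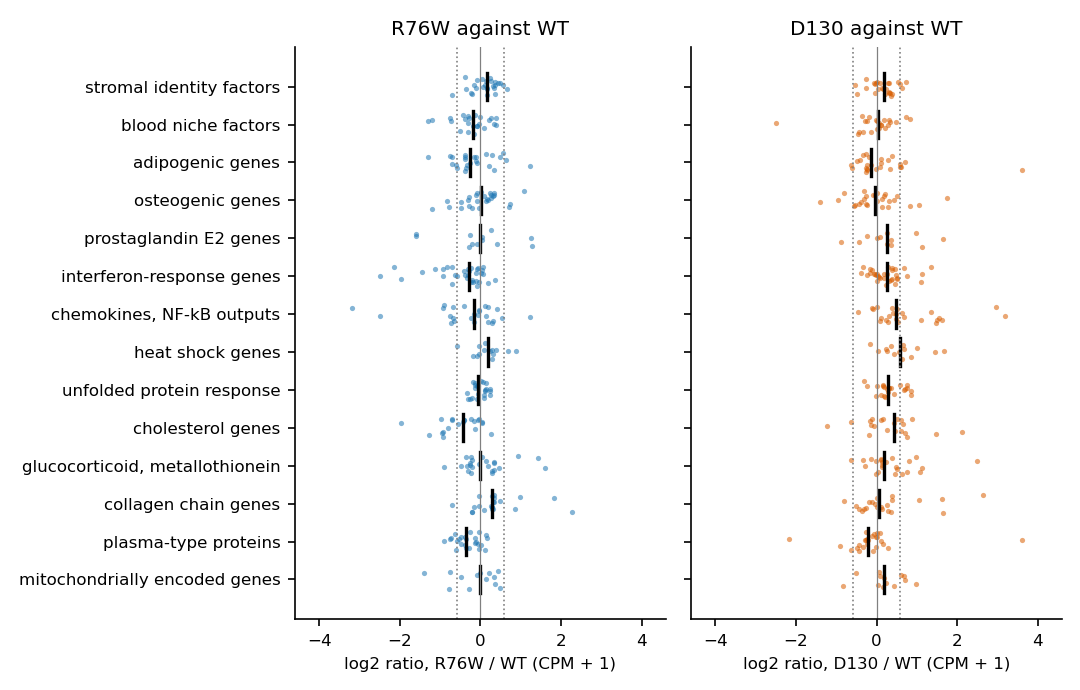
Log2 ratio of CPM + 1 (x axis) of each measured gene of 14 lists (y axis) in members, R76W against WT on the left and D130 against WT on the right. Each point is 1 gene, black bars are list medians and dotted lines mark 1.5 times; the interferon median is -0.29 on the left and 0.25 on the right, and the heat shock median is 0.18 and 0.59.

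The 8 highest ratios of R76W to WT were of G530011O06Rik, 5430419D17Rik, Gm29684, Frmd5, Clstn2, Rnf144a, Ank3 and Trpc6. Ank3 (ankyrin G), a membrane scaffold gene 629 kb long, was at 162 CPM (148 to 177) in WT, 541 CPM (519 to 565) in R76W and 127 CPM (117 to 138) in D130, so only R76W was high. Clstn2, a calcium-binding adhesion gene, was at 53 CPM in WT, 199 CPM in R76W and 85.5 CPM in D130, and the cation channel gene Trpc6 at 14 CPM in WT, 45.9 CPM in R76W and 16.9 CPM in D130. The uncharacterised transcript G530011O06Rik stood at 3.25 CPM in WT, 43.6 CPM in R76W and 15 CPM in D130. The 8 lowest were of Wdr72, Syt6, Ifit3, Rerg, Plac9b, Hpgd, Ptchd4 and Tatdn3. Rerg, a small GTPase gene, was at 54.3 CPM in WT, 15.7 CPM in R76W and 54.1 CPM in D130, low in R76W alone, while Wdr72 was at 22.4 CPM in WT, 2.99 CPM in R76W and 7.86 CPM in D130 and Syt6, a vesicle protein gene, at 42.6 CPM in WT, 9.73 CPM in R76W and 17.2 CPM in D130, with WT highest for both.

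The 8 highest ratios of D130 to WT were of Gm17268, Ccl2, Zbtb16, Nab2, Phlda1, Fosl2, Ccl7 and Il1rn. Nab2, a co-repressor of Egr1, was at 5.20 CPM in WT, 6.73 CPM in R76W and 25 CPM in D130 and Phlda1, a growth factor-induced gene, at 14 CPM in WT, 29.7 CPM in R76W and 58.4 CPM in D130. Both were higher above the immediate early limit, at 14.5, 10.6 and 32.3 CPM and 55.7, 117 and 131 CPM, again with D130 highest. Among the 8 lowest were those of Ptn, Hpse2, Plac9b, Gm42705, A2m, Aldh1a2 and Gfra1. Gfra1, a receptor gene for the neurotrophic factor GDNF, was at 29.3 CPM in WT, 27.9 CPM in R76W and 7.86 CPM in D130, with WT and R76W close and D130 low. Plac9b was low in both mutants, at 25.7 CPM in WT, 7.23 CPM in R76W and 4.76 CPM in D130.

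**Figure D4:**
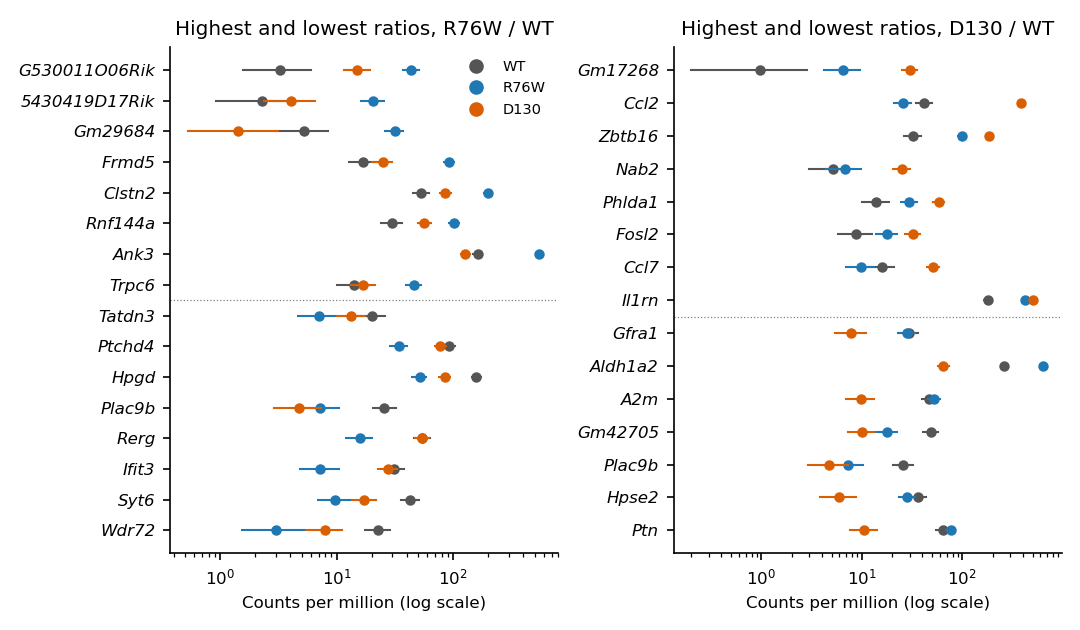
RNA level in CPM (x axis, log scale) with Poisson 95% intervals of genes among the 8 highest (above the dotted line) and 8 lowest ratios, R76W to WT on the left and D130 to WT on the right, in members of WT (grey), R76W (blue) and D130 (orange). Ank3 and Frmd5 are high in R76W alone, and Ptn and A2m are low in D130 alone.

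D130 against R76W sets the model with both channel types blocked beside the one in which gap junctions alone are inhibited, in libraries of closer depth. Of all measured genes 6.46% were at least 1.5 times higher in D130 and 5.85% lower, with a median of 0.04. Among the lists, 14 of 34 interferon genes, 13 of 25 chemokine genes, 10 of 21 cholesterol genes, 6 of 14 heat shock genes and 6 of 23 unfolded protein response genes were higher in D130 and none of these lists had a gene lower. The medians were 0.44, 0.61, 0.58, 0.51 and 0.43 in that order. In members with no immediate early UMI they were 0.40, 0.24, 0.53, 0.36 and 0.40. With at most 1 hemoglobin UMI they were 0.46, 0.47, 0.41, 0.41 and 0.40. Without the cells high in Cxcl9 and Cxcl10 the interferon median was 0.31. The 8 highest ratios were of Ccl2, Cxcl10, Tacr1, Id1, Egr1, Ankef1, Ccl7 and Gm17268, of which Egr1 is a gene of the limit. Tacr1, the substance P receptor gene, was at 10.1 CPM in WT, 1.5 CPM in R76W and 23.1 CPM in D130, with 1 D130 member holding 28.9% of the D130 UMIs. Among the 8 lowest were those of Gm29684, Aldh1a2, Camk4, Ptn, A2m, Nav2 and 5430419D17Rik. Nav2, a cytoskeletal guidance gene, was at 48.8 CPM in WT, 119 CPM in R76W and 25.3 CPM in D130, and Camk4, a calcium-dependent kinase gene, at 13.3 CPM in WT, 25.7 CPM in R76W and 2.14 CPM in D130.

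The lists were also read in the LepR+ cells above the limit, which are other cells of the same libraries. There the D130 to WT medians were 0.33 for interferon, 0.43 for chemokine, 0.43 for heat shock, 0.31 for unfolded protein response and 0.30 for cholesterol genes, all of the sign found in members. The R76W to WT medians for the same lists in that order were -0.21, 0.00, 0.06, 0.08 and -0.09 there. In members they were -0.29, -0.16, 0.18, -0.07 and -0.42. The cholesterol difference was thus smaller above the limit, and the unfolded protein response median changed sign. The other immediate early genes changed sign: D130 to R76W their median was 0.60 in members and -0.60 above the limit. In members with no immediate early UMI their median was 0.02. The limit was set on immediate early RNA, and the libraries filled each side of it differently. Members without such a UMI were 64.8% in R76W and 40.4% in D130. Above the limit the median sum of the limit's genes was higher in R76W than in D130. The sign change of the other immediate early genes therefore cannot be told apart from the choice of cells. Further medians changed sign as well, among them cAMP genes in D130 to R76W (0.20 and -0.30) and adipogenic genes in D130 to WT (-0.14 and 0.26). None of these sign changes was tested.

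Differences between libraries were followed down to the members with no immediate early UMI at all, 328 in WT, 330 in R76W and 201 in D130. These cells had medians of 4824, 6641 and 7609 UMIs, fewer than the members of each library as a whole. There Ccl2 was at 19.5 CPM in WT (13.4 to 27.6), 27 in R76W and 127 in D130, so the D130 level was lower than over all members (388 CPM) and still above the other libraries. Zbtb16 was at 37.3, 100.03 and 242 CPM, higher in D130 than over all members. Gja1 was at 757, 1165 and 1257 CPM, Aldh1a2 at 272, 596 and 75.2 CPM, Hpgd at 133, 49.0 and 77.2 CPM, and Calr at 393, 405 and 693 CPM. For these 6 genes the order of the 3 libraries matched that over all members, except that R76W and WT changed places for Ccl2.

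Just under the limit, at 15 to 20 immediate early UMIs per 10000, Ccl2 was at 40.7 CPM in 22 WT cells and 901 CPM in 36 D130 cells, with no UMI in 9 R76W cells. Just above it, at 20 to 25, it was at 17.8 CPM in 17 WT, 126 CPM in 9 R76W and 355 CPM in 27 D130 cells. Runx2 was lower towards the limit in D130, from 2102 CPM without an immediate early UMI to 1299 CPM at 15 to 20, while in WT it was at 2082 and 2075 CPM. In R76W it was at 2643 and 1573 CPM, the latter over 9 cells.

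**Figure D5:**
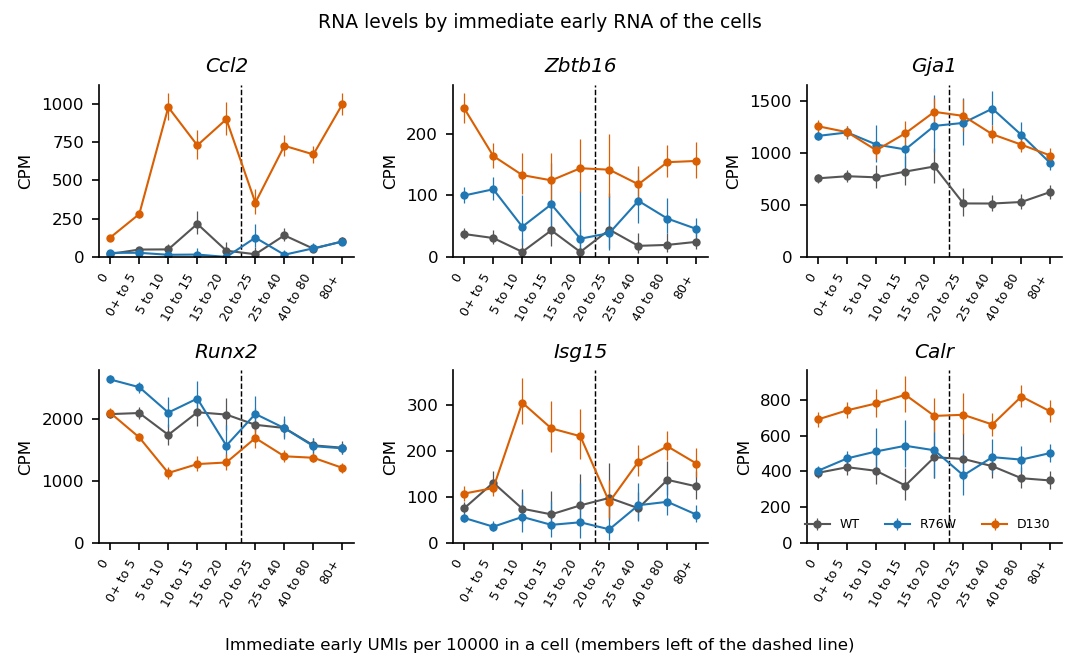
RNA level in CPM (y axis) of Ccl2, Zbtb16, Gja1, Runx2, Isg15 and Calr in LepR+ cells grouped by immediate early UMIs per 10000 (x axis), for WT (grey), R76W (blue) and D130 (orange), with Poisson 95% intervals as bars. Members lie left of the dashed line; D130 is highest for Ccl2 and Zbtb16 in each group, and WT is lowest for Gja1 in each group.

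Members of 1 library also differed among themselves. After thinning each cell to 2000 UMIs, the median ratio of variance to mean over 3641 genes was between 1.09 and 1.10, close to what counting alone gives. The 10 most uneven genes were Gm42418, Malat1, Ibsp, Igfbp5, Cxcl9, Mgp, Pdzrn4, Csmd1, Hp and mt-Atp6. Ibsp had WT, R76W and D130 ratios of 10.1, 9.59 and 11.1, and Cxcl9 of 19.5, 9.21 and 50.4. Cxcl9 was at 219 CPM in WT, 114 CPM in R76W and 474 CPM in D130, in 66, 57 and 91 members. Gm42418, a ribosomal RNA-like transcript, took 36526 CPM in WT, 49716 CPM in R76W and 28567 CPM in D130. Scaling by the median of ratios, which such a gene cannot sway, divided the levels of the libraries by 1.01, 0.992 and 1.01.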

How the data were processed

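Single-cell libraries (10x Genomics 3′ chemistry), 1 per genotype, were analysed. The authors deposited UMI counts per gene and cell, made with Cell Ranger 7.0.1 per the file headers and with mm10 named in the submitters' processing notes, which also name Seurat. The values were raw counts with no normalization. Barcodes were kept from 500 genes and 1000 UMIs upwards when mitochondrial UMIs were 10% or less, and the members were chosen as the report states. UMIs were summed over the members of a library and scaled to CPM, and symbols with several gene IDs (38) were summed. Ratios are log2 of CPM + 1, so they understate the change of low genes. Levels have exact Poisson and shares exact Clopper-Pearson 95% intervals, which cover counting error only; amplified molecules and cells of 1 library are not replicates of a genotype.

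A gene was called at 1.5 times among the 11875 genes with at least 30 UMIs. Genes named by rank had 50 or more UMIs in the members of the libraries compared, UMIs in 20 or more members, a level of 20 CPM or more in 1 library, and intervals that did not overlap; mitochondrial, ribosomal, hemoglobin, immunoglobulin, sex-linked, blood and endothelial marker genes and genes higher in erythroid cells were left out, and the 8 highest and 8 lowest were taken. Some genes that met this rule are not reported here. Sets against other cells took 10 genes each. Members and gene lists were chosen with earlier results of these data known. Doublets were called with Scrublet (scanpy 1.11.5) and not removed. The ratio step was tested on simulated data. Python 3.11.15, numpy 2.4.6, scipy 1.17.1 and pandas 2.3.3 were used. GENCODE models of GRCm38 gave the gene lengths. Alternatives covered the limits of the rule, depth, weighting, pseudocount, count minimum, scaling and gene length; 2 were added after seeing the data, members with no immediate early UMI and members without the cells high in Cxcl9 and Cxcl10.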

Additional observations from a re-analysis of the deposited data

Results flagged for a closer look

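Egr1 differed between D130 and R76W in opposite directions on the 2 sides of the immediate early limit. Its log2 ratio of D130 to R76W was 2.52 in members and -0.99 in the LepR+ cells above the limit. Egr1 is a gene of the limit itself, the difference between the cell classes was not tested, and each genotype was 1 library.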

How the results depend on the processing

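Changing the rule moved the share of cells under the limit but kept D130 lowest under each alternative tried. With a limit of 10 immediate early UMIs per 10000 the shares (WT, R76W, D130) were 66.6%, 73.2% and 55%, with a limit of 40 they were 82.1%, 81.8% and 76.9%, and with no UMI of the 5 genes, chosen after seeing the data, 42.2%, 49.9% and 26.1%. Counts of genes past 1.5 times depended on the pseudocount and on the count minimum. For R76W to WT, genes higher and lower numbered 266 and 439 with a pseudocount of 5 CPM, 1321 and 1693 with at least 1 UMI, and 116 and 259 with at least 300 UMIs. For D130 to WT they numbered 338 and 344, 1404 and 1515, and 164 and 149. For D130 to R76W they numbered 375 and 388, 1453 and 1289, and 194 and 193. Of the values of list medians under the alternatives, 1104 stayed within 0.1 of the median reported and 175 moved further, and 5 changed the sign of a median of at least 0.2 in size. In members with no immediate early UMI, the sign changed for connexins in R76W to WT (0.35 to -0.057), for the other immediate early genes in D130 to WT (0.23 to -0.12), for cell cycle genes in D130 to WT (-0.22 to 0.13) and for cAMP genes in D130 to R76W (0.20 to -0.024). With at most 1 hemoglobin UMI the cell cycle median in D130 to WT was 0.014. The cause of these changes was not tested. No ratio of a named gene changed sign, 700 stayed close and 68 moved. No paired analysis was possible because each genotype has 1 library. Depth limits genes of few UMIs, and WT members were the shallowest.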
